A study of Mus musculus with 21 samples.

Results

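The semaphorin signalling genes described here are 4 semaphorins (Sema3a, Sema3c, Sema5a and Sema6a), the neuropilins Nrp1 and Nrp2, and 3 plexins (Plxna2, Plxna4 and Plxnd1), measured in the embryonic cerebral cortex of 3 mouse lines with mutations in Pax6. The members were taken as every probe set, a group of short oligonucleotides read out as one value, that the array annotation pairs with a single gene that is one of these 9, out of 18193 named genes. This gave 27 of the 45101 probe sets on the array, and 24 of them were bright enough to test. Rostral cerebral cortex was taken at embryonic day 14 (E14), and labelled target from its total RNA was hybridized to 21 arrays, 1 per sample. Sey (Small-eye) mutants, 4 arrays, were set against 3 arrays of wild-type littermates, both on a C57BL/6J x DBA/2J (B6D2F1) background. Leca4 mutants, 3 arrays, were set against 4 arrays of wild-type littermates, and Leca2 mutants, 4 arrays, against 3 arrays of wild-type littermates, all of strain 129 S6. The labels call the arrays of a group biological replicates, but do not say whether mutants were homozygous or whether tissue of several embryos was pooled. Pax6 is a transcription factor of cortical progenitors with a paired domain, made of the PAI and RED subdomains, and a homeodomain. As background, Sey is usually treated as a loss-of-function allele, Leca4 carries a substitution in the PAI subdomain and Leca2 one in the RED subdomain.

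Semaphorins are secreted or membrane-bound guidance cues that steer growing axons and migrating neurons, mostly by repelling them. The class 3 members are secreted and bind neuropilins, which hold the ligand, while plexins pass the signal into the cell towards the cytoskeleton. In the developing cortex Sema3a acts as a repellent for cortical axons and orients migrating neurons, Sema3c draws cortical and callosal axons, and Nrp2 is carried by interneurons that leave the ventral telencephalon. Class 5 and class 6 semaphorins are anchored in the membrane and bind plexins without a neuropilin. Nrp1 and Plxnd1 are also found in blood vessels, where Nrp1 serves as a co-receptor for VEGF.

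Of the members called in the Sey line, as given further on, 3 have a RefSeq promoter window that ends at the annotated start of the gene (assembly GRCm38.p6). The 250 bases before that start are shown because Sema3c and Sema5a fell and Nrp2 rose in Sey cortex. Capitals mark matches to the E-box CANNTG, the letters bound by basic helix-loop-helix factors.
Sema3c promoter, chr5:17574566-17574815, plus strand: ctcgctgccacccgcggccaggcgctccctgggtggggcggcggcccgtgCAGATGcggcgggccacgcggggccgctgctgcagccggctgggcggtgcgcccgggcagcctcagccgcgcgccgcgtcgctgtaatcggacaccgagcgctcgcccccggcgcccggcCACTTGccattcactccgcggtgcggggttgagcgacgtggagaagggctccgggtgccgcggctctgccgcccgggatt
Sema5a promoter, chr15:32244563-32244812, plus strand: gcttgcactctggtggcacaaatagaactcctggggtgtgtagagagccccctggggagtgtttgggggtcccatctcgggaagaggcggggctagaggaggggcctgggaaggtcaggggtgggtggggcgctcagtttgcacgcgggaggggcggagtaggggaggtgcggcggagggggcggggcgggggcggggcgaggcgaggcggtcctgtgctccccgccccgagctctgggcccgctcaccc
Nrp2 promoter, chr1:62703067-62703316, plus strand: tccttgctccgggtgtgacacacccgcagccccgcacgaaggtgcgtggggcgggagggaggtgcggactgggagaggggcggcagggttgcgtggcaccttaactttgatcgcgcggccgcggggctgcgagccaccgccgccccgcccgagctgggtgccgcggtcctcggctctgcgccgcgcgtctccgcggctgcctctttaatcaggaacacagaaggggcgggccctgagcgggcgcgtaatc

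Of the 9 genes, 7 had a promoter window, at the annotated start of the gene or at another start. The 250 bases before that start were searched on both strands for 4 motifs. Sema3c held 2 E-boxes, 1 of which was CAGATG, an E-box form preferred by neurogenic factors, and so a match to both motifs. Sema5a and Nrp2 held none. The homeodomain core TAATTA and the paired-class homeodomain dimer were in none of the 7 windows. Over all 32851 windows of the same length, 66.2% held CANNTG, 14.4% CAGATG, 4.84% TAATTA and 0.463% the dimer. The Sema3a window held 1 E-box, and those of Nrp1, Plxna2 and Plxnd1 none. These 4 windows belong to a start other than the gene's outermost annotated start and are not shown. The GC content of the window was 78.4% for Sema3c, 72.4% for Nrp2 and 72.0% for Sema5a, against 40.8% for Sema3a. A match is a run of letters and is not evidence of binding.

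The values are log2 RMA expression values, so that a difference of 1 is a doubling of the signal. Array medians were 6.03 to 6.07 in the Sey line, 6.25 to 6.26 in the Leca4 line and 6.12 to 6.18 in the Leca2 line, and levels were therefore compared only within a line. Replicate arrays of a group correlated at r = 0.993 to 0.997. Pax6 mRNA was higher in mutants of each line, by 0.56 in Sey, 0.49 in Leca4 and 0.93 in Leca2 (limma, adjusted p = 0.000335, 0.00483 and 2.54e-05), and was not reduced in any of them. With each array taken as 1 embryo, Xist and Y-linked genes gave 3 females and 1 male among Sey mutants and 3 males among Sey controls. Leca4 mutants were 1 female and 2 males, and their controls 1 female and 3 males. Leca2 mutants were 2 females and 2 males, and their controls 3 females. Markers of several cell types moved with genotype. Of all 13850 genes, each read by its tested probe set with the highest mean, 9.65% were called higher and 8.33% lower in Sey mutants. These shares were 2.88% and 1.66% in Leca4 mutants, and 0.137% and 0.289% in Leca2 mutants. Of 11 cortical projection neuron markers, 10 fell in Sey mutants, and their mean log2 level was 10.1 to 10.3 in Sey mutants, against 10.9 in each Sey control. Of 13 ventral telencephalic and interneuron markers, 9 rose in Sey mutants, with a mean log2 level of 8.64 to 9.08 in Sey mutants, against 6.52 to 6.83 in Sey controls; Dlx2 rose by 3.81 and Gad1 by 2.02. Of 8 Cajal-Retzius markers 6 rose, and of 13 endothelial markers 1 rose (Emcn, by 0.38), with a mean endothelial log2 level of 7.09 to 7.22 in Sey mutants, against 7.05 to 7.09 in Sey controls. Of 7 diencephalic markers 3 rose and 1 fell in Sey mutants, with a mean log2 level of 7.63 to 7.81 in Sey mutants, against 6.72 to 6.87 in Sey controls. Of 7 meningeal and mesenchymal markers 2 rose (7.05 to 7.20 in Sey mutants, against 6.55 to 6.69 in Sey controls). Of 10 radial glial markers 3 rose, among them Pax6, the mutated gene itself, and 2 fell. Of 9 microglial and 4 erythroid markers none was called. In Leca4 mutants, 3 of 9 microglial markers rose (Csf1r, C1qa and C1qc), with a mean log2 level of 7.62 to 7.72 in Leca4 mutants, against 7.28 to 7.44 in Leca4 controls. The same 2 meningeal markers as in Sey, Crabp2 and Prrx1, rose in Leca4 mutants (list mean 7.30 to 7.37 in Leca4 mutants, against 7.02 to 7.29 in Leca4 controls). Also in Leca4 mutants 1 projection neuron marker and 1 diencephalic marker fell. The 1 radial glial marker that rose was Pax6 itself, and 1 fell. No ventral, Cajal-Retzius, endothelial or erythroid marker was called in Leca4 mutants. In Leca2 mutants the radial glial list had 1 marker higher, again Pax6 itself, and 1 lower, and no other list had a call. In tissue RNA, fewer cells of a type and less RNA per cell cannot be told apart, and the part of these shifts in the results below was not tested.

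Sey mutant cortex had less Sema3a, Sema3c, Sema5a, Nrp1 and Plxna4 mRNA and more Nrp2 mRNA than littermate cortex. Sema5a showed the greatest difference of the 9 genes, about 4-fold lower. In Leca4 mutants Sema3a and Nrp1 fell, with smaller changes of their lead probe sets than in Sey. In Leca2 mutants no probe set of the 9 genes passed the test. Each probe set was tested with limma in one model of the 6 groups, and a change was called at a Benjamini-Hochberg adjusted p under 0.05 over all 29474 tested probe sets. In the Sey line 13 of the 24 tested probe sets were called, 10 lower and 3 higher, where 14.6% of all probe sets were called, 6.85% lower and 7.78% higher. In the Leca4 line 4 of 24 were called, all lower, against 3.77% of all probe sets, 1.64% lower and 2.13% higher. In the Leca2 line limma called 0 of 24, against 0.373% of all probe sets, with 6 of 24 at an unadjusted p under 0.05. The median log2 change of the 24 probe sets was -0.29 in Sey, -0.14 in Leca4 and -0.10 in Leca2, while that of all tested probe sets was 0.00 in each line. The members were chosen with results of these data known, so these counts describe them and do not test the family.

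**Figure D1:**
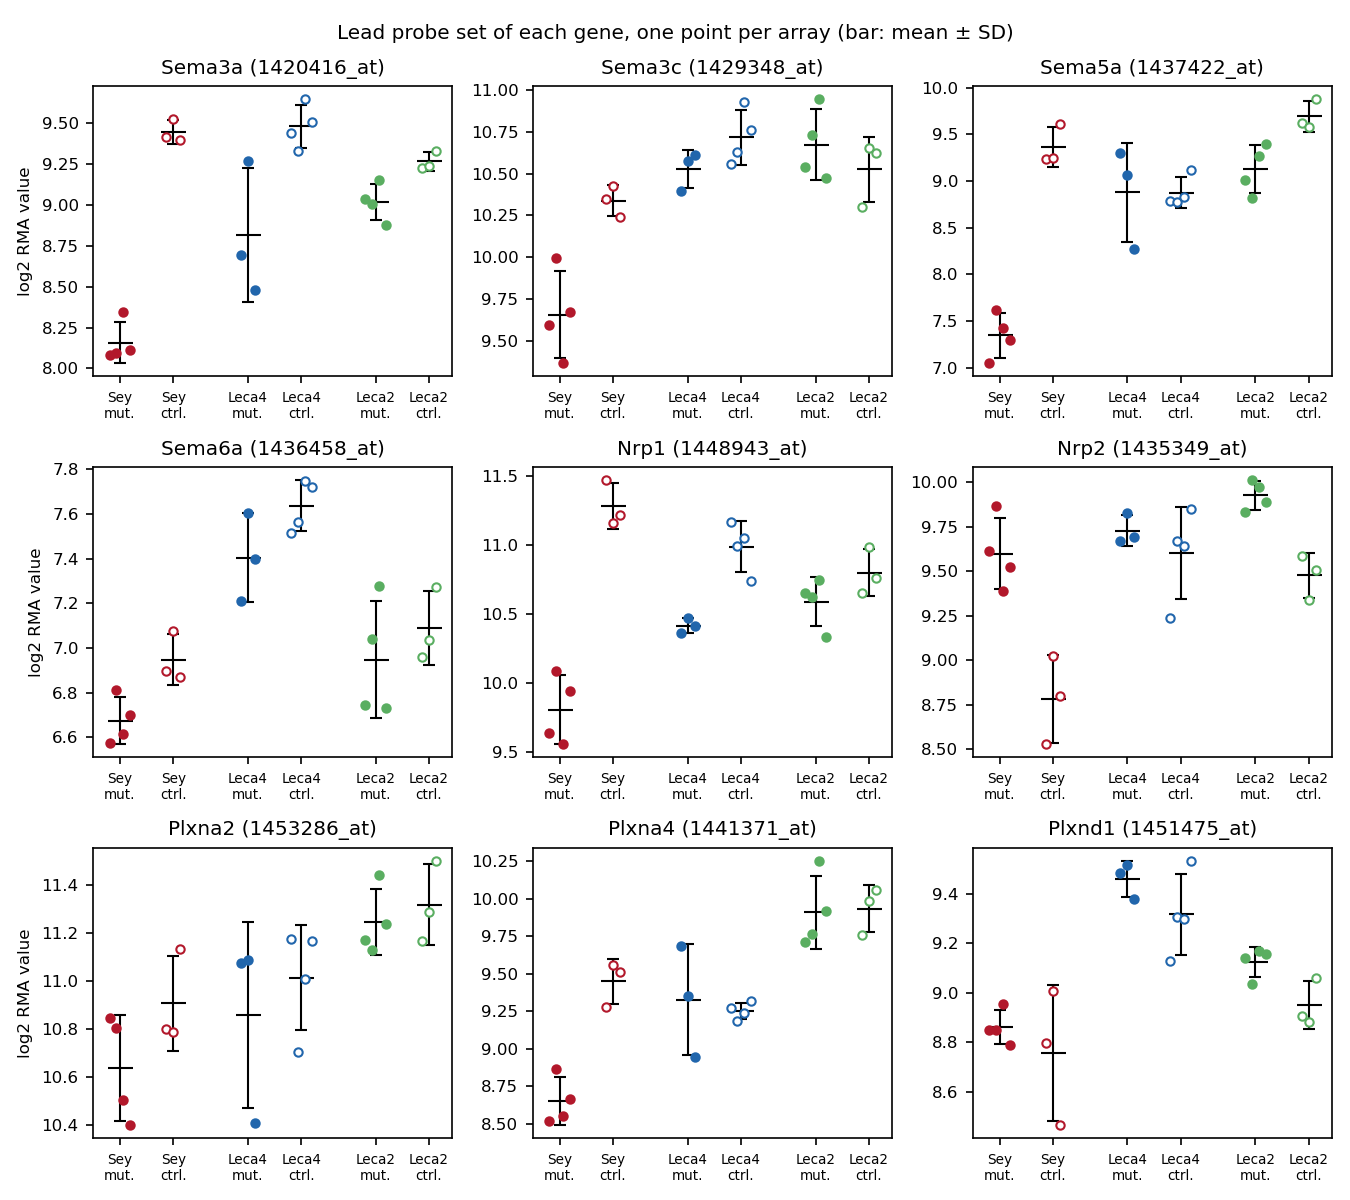
Log2 RMA value of the lead probe set of each of the 9 genes (the tested probe set with the highest mean) in every array, with mutants left of their controls in each line and bars for the mean and SD. Sey mutants lay below all Sey controls for Sema3a, Sema3c, Sema5a, Sema6a, Nrp1 and Plxna4 and above them for Nrp2; of these, Sema6a did not pass the test.

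Among the ligands, Sema3a, a secreted repellent, lies at chr5:13124822-13603485 (GRCm38.p6). Its lead probe set, 1420416_at, read 8.08, 8.09, 8.35 and 8.11 in the 4 Sey mutants, against 9.42, 9.53 and 9.39 in the 3 Sey controls. All Sey mutants were more than 1 log2 unit below the lowest control. The change was -1.29 ± 0.13 (SE), 2.44-fold lower (limma, adjusted p = 1.38e-06). In Leca4 mutants the same probe set read 8.69, 9.27 and 8.48, against 9.44, 9.33, 9.65 and 9.50 in Leca4 controls. Every Leca4 mutant was below every control, although replicate 2 came within 0.1 of the lowest, and the gene fell by 0.66 ± 0.13 (1.58-fold lower, limma, adjusted p = 0.00557). That call was lost where only the Leca4 arrays were fitted (adjusted p = 0.147) and with replicate number as a block (adjusted p = 0.0822). Leca2 mutants read 9.04, 9.01, 9.15 and 8.88, against 9.23, 9.24 and 9.33 in Leca2 controls, also without overlap. The Leca2 change of -0.25 (95% interval -0.52 to 0.02) did not pass the test (limma, adjusted p = 0.744).

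A second Sema3a probe set, 1449865_at, gave the same picture at a lower signal. All 4 Sey mutants, at 5.0 to 5.4, were at or below the level that the filter takes as dim, while the Sey controls were at 6.38 to 6.42. With the mutants set at that level, Sema3a was at least 2.03-fold lower in Sey mutants (measured means 5.24 in Sey mutants and 6.41 in Sey controls, limma, adjusted p = 1.29e-05). In Leca4 mutants it read 6.42, 6.99 and 6.48, against 7.35 to 7.60 in Leca4 controls, a change of -0.87 ± 0.14 (adjusted p = 0.00129) that was kept under all 16 alternatives tried. In Leca2 mutants it read 6.26 to 6.97, against 6.92 to 7.12 in Leca2 controls, which overlap. The remaining Sema3a probe set, 1420417_at, was too dim to be tested.

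Sema3c, at chr5:17574816-17730268, is a secreted ligand that attracts cortical axons. Its lead probe set, 1429348_at, read 9.59, 9.997, 9.37 and 9.67 in Sey mutants, against 10.35, 10.43 and 10.24 in Sey controls. No Sey mutant reached the lowest control, and the change was -0.68 ± 0.14 (1.60-fold lower, limma, adjusted p = 0.0017). In Leca4 mutants it averaged 10.53 ± 0.11, against 10.72 ± 0.16 in Leca4 controls (SD, n = 3 and 4), and in Leca2 mutants 10.67 ± 0.21, against 10.53 ± 0.20 in Leca2 controls (SD, n = 4 and 3). The groups overlapped in both lines, and neither difference passed the test (changes -0.19 and 0.15, limma, adjusted p = 0.54 and 0.946). The dimmer probe set 1420696_at averaged 5.62 ± 0.11 in Sey mutants, against 5.87 ± 0.14 in Sey controls, and did not pass the test (limma, adjusted p = 0.166).

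Sema5a, a membrane-bound semaphorin with thrombospondin repeats, lies at chr15:32244813-32696341. Its lead probe set, 1437422_at, read 7.05, 7.62, 7.42 and 7.30 in Sey mutants, against 9.23, 9.24 and 9.61 in Sey controls. The gap between the groups was far wider than the spread within either. The change was -2.01 ± 0.20, 4.04-fold lower (limma, adjusted p = 9.1e-07). The second probe set, 1434776_at, read 6.09, 6.53, 6.40 and 6.13 in Sey mutants, against 8.24, 8.27 and 8.60 in Sey controls. Both probe sets thus placed Sema5a at about the same fold, with 4.24-fold for the second (adjusted p = 4.29e-09).

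Sema5a was not called in either Leca line. In Leca4 mutants the lead probe set read 9.30, 9.06 and 8.28, against 8.77 to 9.12 in Leca4 controls. The mutants lay on both sides of the controls, with replicate 3 the lowest, and the change was 0.00 (95% interval -0.41 to 0.41, limma, adjusted p = 0.998). In Leca2 mutants it read 9.02, 8.82, 9.26 and 9.40, against 9.62, 9.57 and 9.88 in Leca2 controls. These groups did not overlap, but the change of -0.57 did not pass the test (limma, adjusted p = 0.415), and 1434776_at gave -0.15 with overlapping groups. The probe sets 1422167_at and 1459109_at of Sema5a were too dim to be tested.

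Sema6a, a membrane-bound ligand of class A plexins on chromosome 18, was not called in any line by any of its 3 probe sets. The lead probe set, 1436458_at, read 6.57 to 6.81 in Sey mutants, against 6.87 to 7.08 in Sey controls, a difference of -0.27 without overlap (limma, adjusted p = 0.161). In Leca4 mutants it read 7.21 to 7.61, against 7.52 to 7.75 in Leca4 controls, and in Leca2 mutants 6.73 to 7.28, against 6.96 to 7.27 in Leca2 controls. Both pairs overlapped. The probe set 1421414_a_at differed by 0.00 in Sey (95% interval -0.16 to 0.15), and 1425903_at was at or below the filter level in all Leca4 and Leca2 mutants.

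Among the co-receptors, Nrp1, which binds Sema3a and VEGF, lies at chr8:128358591-128505476. Its lead probe set, 1448943_at, read 9.64, 10.09, 9.56 and 9.95 in Sey mutants, against 11.47, 11.16 and 11.22 in Sey controls. Every Sey mutant was at least 1 log2 unit below every control, and Nrp1 fell by 1.47 ± 0.13 (2.78-fold lower, limma, adjusted p = 3.15e-07). The probe sets 1418084_at and 1448944_at gave -1.51 and -1.48 (adjusted p = 1.67e-06 and 4.44e-07). The fourth, 1457198_at, which varied more between arrays (SE 0.29), read 5.99 to 6.34 in Sey mutants, against 6.59 to 6.83 in Sey controls. It did not pass the test in the shared model (adjusted p = 0.196) and did where the Sey arrays were fitted alone (adjusted p = 0.00531).

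Nrp1 was also lower in Leca4 mutants. The lead probe set read 10.37, 10.47 and 10.42 in Leca4 mutants, against 11.17, 11.00, 11.06 and 10.74 in Leca4 controls. The groups did not overlap, and the change was -0.57 ± 0.13 (1.49-fold lower, limma, adjusted p = 0.0172). The call was lost without Leca4 mutant replicate 1 or without Leca4 control replicate 1, with an adjusted p of up to 0.0712 and the gene still lower. The probe set 1448944_at fell by 0.66 ± 0.14 (adjusted p = 0.00851, and 0.0504 with replicate number as a block), while 1418084_at differed by -0.49 and 1457198_at by -0.86 without passing the test (adjusted p = 0.0931 and 0.117). In Leca2 mutants the lead read 10.65, 10.63, 10.75 and 10.34, against 10.65, 10.99 and 10.76 in Leca2 controls. Those groups overlapped (change -0.21, 95% interval -0.49 to 0.06, limma, adjusted p = 0.831).

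Nrp2, the neuropilin with highest affinity for Sema3f and a receptor of migrating interneurons, lies at chr1:62703317-62818692. It was the one member that rose in Sey mutants. Its lead probe set, 1435349_at, read 9.61, 9.87, 9.39 and 9.52 in Sey mutants, against 8.53, 9.02 and 8.80 in Sey controls. All Sey mutants were above all controls, and the change was 0.82 ± 0.13 (1.76-fold higher, limma, adjusted p = 0.00025). The probe sets 1456778_at and 1426528_at rose by 0.81 and 0.62 (adjusted p = 0.00128 and 0.000694), and 1447343_at was at or below the filter level in all Sey arrays. Of the 13 ventral and interneuron markers given above, 9 rose in the same arrays and 4 were not called. Of 8 Cajal-Retzius markers 6 rose there too, and of 7 diencephalic markers 3 rose and 1 fell. The part of these shifts in the Nrp2 change was not tested.

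In Leca4 mutants the Nrp2 lead read 9.67, 9.83 and 9.69, against 9.24, 9.67, 9.64 and 9.85 in Leca4 controls. The groups overlapped, with a change of 0.13 (limma, adjusted p = 0.708). In Leca2 mutants it read 9.83, 10.01, 9.97 and 9.89, against 9.59, 9.34 and 9.51 in Leca2 controls. All Leca2 mutants were above all controls, here and for 1456778_at and 1426528_at. The Leca2 changes of 0.45, 0.36 and 0.36 had unadjusted p = 0.00323, 0.0314 and 0.00492, and none passed the adjustment (limma, adjusted p = 0.26, 0.621 and 0.312).

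Among the plexins, Plxna4, which with Nrp1 forms a receptor for Sema3a, lies at chr6:32144543-32588192. Its lead probe set, 1441371_at, read 8.52, 8.87, 8.55 and 8.67 in Sey mutants, against 9.28, 9.56 and 9.51 in Sey controls. No Sey mutant reached the controls, and Plxna4 fell by 0.80 ± 0.15 (1.74-fold lower, limma, adjusted p = 0.000803). The second probe set, 1457840_at, fell by 0.84 ± 0.13 (adjusted p = 0.000153). In Leca4 mutants the lead read 9.69, 9.35 and 8.95, against 9.19 to 9.32 in Leca4 controls, and in Leca2 mutants 9.71 to 10.25, against 9.76 to 10.06 in Leca2 controls. Mutant and control values overlapped in both Leca lines (changes 0.07 and -0.02, limma, adjusted p = 0.866 and 1).

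Plxna2, a class A plexin that also binds Sema6a, was not called in any line by any of its 4 probe sets. The lead probe set, 1453286_at, averaged 10.64 ± 0.22 in Sey mutants, against 10.91 ± 0.20 in Sey controls (SD, n = 4 and 3). The changes of the 4 probe sets in Sey were -0.27, -0.31, -0.12 and -0.27 (limma, adjusted p of 0.172 to 0.643). In Leca4 mutants replicate 3 was the lowest array of its line for each Plxna2 probe set, at 10.41 for the lead, where the other two mutants read 11.07 and 11.09 and the Leca4 controls 10.71 to 11.18. Plxnd1, a receptor that binds Sema3e without a neuropilin and is known from blood vessels, had 1 probe set, 1451475_at. It averaged 8.86 ± 0.07 in Sey mutants, against 8.76 ± 0.27 in Sey controls, 9.46 ± 0.07 in Leca4 mutants, against 9.32 ± 0.17 in Leca4 controls, and 9.12 ± 0.06 in Leca2 mutants, against 8.95 ± 0.10 in Leca2 controls. The differences of 0.10, 0.14 and 0.17 did not pass the test (limma, adjusted p = 0.58, 0.534 and 0.808).

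**Figure D2:**
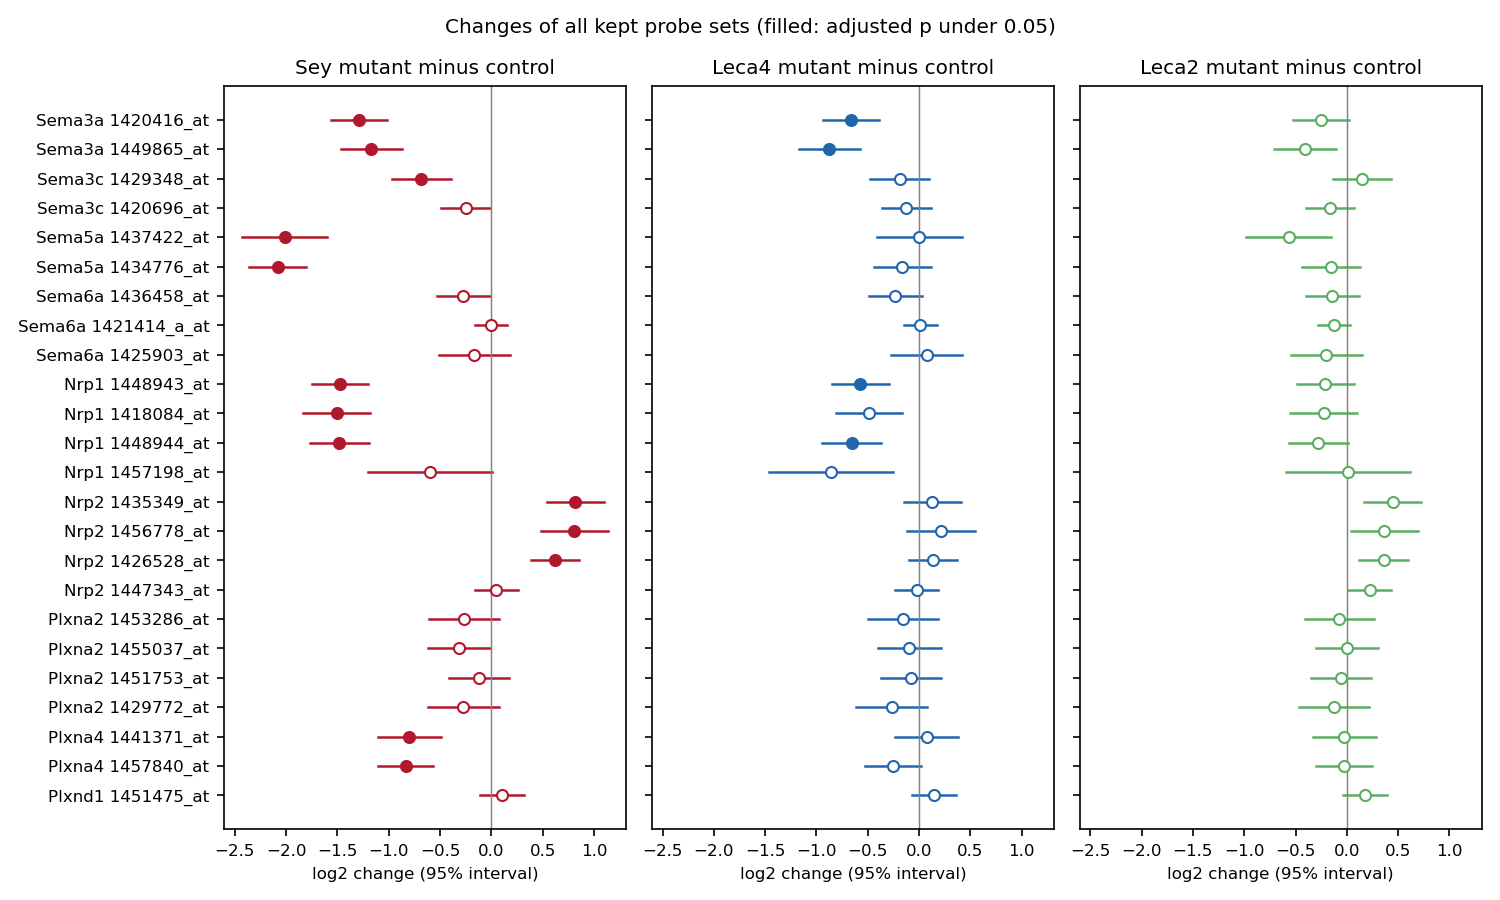
Log2 change with its 95% interval for all 24 tested probe sets, with a panel for each line and filled points where the adjusted p was under 0.05. The 13 filled points in Sey belong to Sema3a, Sema3c, Sema5a, Nrp1, Nrp2 and Plxna4, the 4 in Leca4 to Sema3a and Nrp1, and Leca2 has none.

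Separation of the arrays was counted beside the test, without regard to the size of the gap. In Sey 14 of the 24 probe sets had all mutants below all controls and 3 had all above, where 12.3% and 13.8% of all tested probe sets did so. The 4 entirely below but not called were 1436458_at and 1425903_at of Sema6a, 1457198_at of Nrp1 and 1429772_at of Plxna2. In Leca4 mutants 5 were entirely below, all of them Sema3a or Nrp1, and 0 entirely above, against 6.86% and 6.62% of all. In Leca2 mutants 2 were entirely below, the leads of Sema3a and Sema5a, and 3 entirely above, all of Nrp2, against 4.28% and 2.78% of all. The 3′ minus 5′ log2 signal of a control transcript, a sign of RNA integrity, was -0.175 to -0.128 for Gapdh in Sey mutants, against -0.162 to -0.127 in Sey controls. It was -0.085 to 0.014 in Leca4 mutants, against -0.115 to -0.084 in Leca4 controls, and -0.052 to 0.001 in Leca2 mutants, against -0.088 to -0.057 in Leca2 controls. For Actb, a second control transcript, the same measure was 0.274 to 0.336 in Sey mutants, against 0.300 to 0.322 in Sey controls. It was 0.433 to 0.501 in Leca4 mutants, against 0.380 to 0.444 in Leca4 controls. In Leca2 mutants it was 0.450 to 0.524, against 0.418 to 0.483 in Leca2 controls. The Actb ranges thus overlapped in each line, and those of Gapdh in Sey and, at their edges, in Leca4. The part of RNA integrity in the Leca4 and Leca2 values was not tested.

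Whether a member changed more in one line than in another was tested in the same model as a difference of changes. Sey differed from Leca4 in 8 of the 24 probe sets, 7 with the more negative change in Sey and 1 with the more positive, where 9.07% of all probe sets were called, 4.07% negative and 4.99% positive. Sey differed from Leca2 in 10 of 24, all more negative in Sey, against 4.43% of all, 2.09% negative and 2.34% positive. Leca4 and Leca2 were not separated for any probe set (limma, 0 of 24 called, 3 at an unadjusted p under 0.05), against 1.36% of all, 0.519% negative and 0.838% positive. The lines also differ in strain and their arrays appear to have been normalized apart, so allele, strain and array processing cannot be told apart in these differences. With embryo sex in the model, 4 of the 10 calls between Sey and Leca2 were kept, those of 1434776_at of Sema5a and of 3 Nrp1 probe sets. Over all probe sets, that model called 386 between Sey and Leca2 in place of 1307.

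Sema5a differed most between lines. For the lead probe set the difference of changes was -2.02 ± 0.28 (SE) for Sey minus Leca4 and -1.45 ± 0.28 for Sey minus Leca2 (limma, adjusted p = 0.000126 and 0.00435). With embryo sex in the model the lead was no longer called for Sey minus Leca2 (adjusted p = 0.0831). For 1434776_at the differences were -1.92 and -1.93, and both were called in all 23 alternatives. By 3 of its 4 probe sets, Nrp1 fell further in Sey than in either Leca line, with differences for the lead of -0.90 ± 0.18 for Sey minus Leca4 and -1.26 ± 0.18 for Sey minus Leca2 (limma, adjusted p = 0.00446 and 0.000418). The fourth, 1457198_at, gave 0.26 for Sey minus Leca4 and -0.61 for Sey minus Leca2 and was not called (adjusted p = 0.754 and 0.534). Sema3a fell further in Sey than in Leca2 (difference -1.04, limma, adjusted p = 0.00227, and 0.0544 with embryo sex in the model), and its second probe set, at -0.76, kept its call in 8 of 23 alternatives. For the Sema3a lead the difference between Sey and Leca4, -0.62 with adjusted p = 0.0402, was kept in only 10 of 24 alternatives. The second Sema3a probe set, 1449865_at, gave -0.29 for Sey minus Leca4 and was not called (limma, adjusted p = 0.412). By its lead, Plxna4 differed between Sey and Leca4 by -0.87 (limma, adjusted p = 0.012), and between Sey and Leca2 by -0.77 (adjusted p = 0.0389, kept in 12 of 24 alternatives). The second Plxna4 probe set, 1457840_at, gave -0.58 for Sey minus Leca4 and was not called (adjusted p = 0.053). For Sey minus Leca2 it gave -0.81 (adjusted p = 0.014, kept in 20 of 23 alternatives). Sema3c differed between Sey and Leca2 by -0.83 (limma, adjusted p = 0.017). That call was lost with embryo sex in the model (adjusted p = 0.169), without Sey control replicate 2 (0.0506) and without Leca2 control replicate 1 (0.0673). The dimmer Sema3c probe set, 1420696_at, gave -0.09 for Sey minus Leca2 and was not called (limma, adjusted p = 0.878). By its lead, Nrp2 rose by 0.69 more in Sey than in Leca4 (limma, adjusted p = 0.0269, kept in 17 of 24 alternatives). The lead was not separated between Sey and Leca2 (difference 0.37, 95% interval -0.02 to 0.76, adjusted p = 0.352). The other Nrp2 probe sets, 1456778_at, 1426528_at and 1447343_at, gave 0.595, 0.49 and 0.07 for Sey minus Leca4. None of these was called (limma, adjusted p = 0.105, 0.0626 and 0.809).

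**Figure D3:**
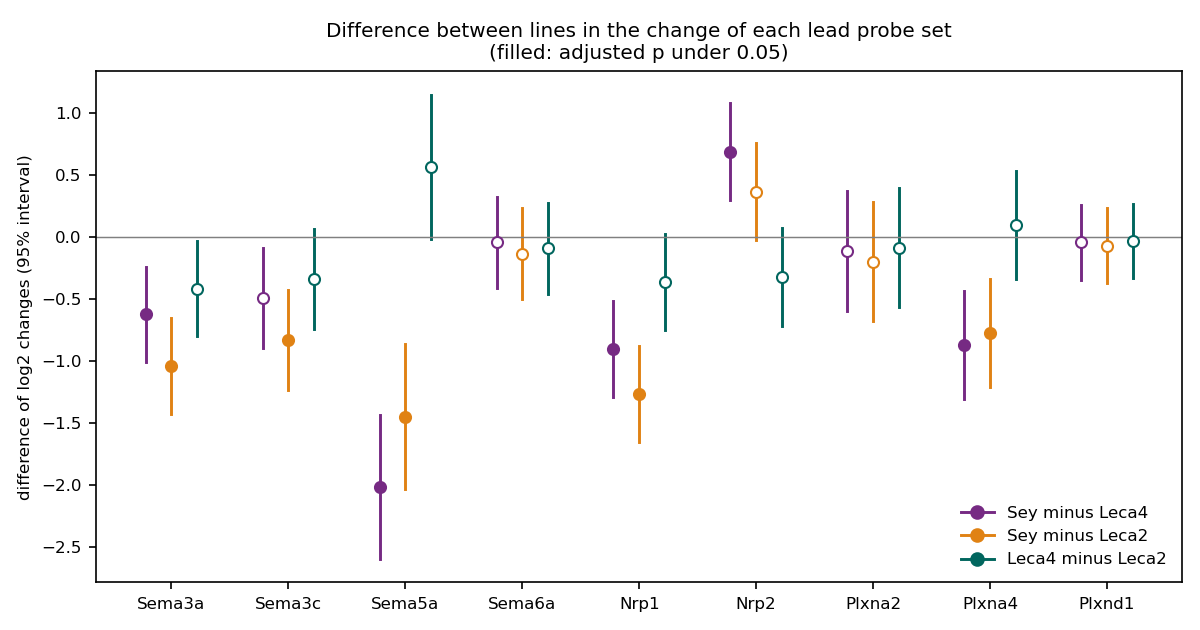
Difference between lines in the log2 change of each lead probe set, with its 95% interval and filled points where the adjusted p was under 0.05. Sema5a lies lowest, at -2.02 for Sey minus Leca4, and no difference of Leca4 minus Leca2 is filled.

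The remaining genes of the pathway were read by the lead probe set of each gene, where 18.0% of all 13850 genes were called in Sey (9.65% higher, 8.33% lower), 4.54% in Leca4 (2.88% higher, 1.66% lower) and 0.426% in Leca2. Of 15 other semaphorins measured, 0 rose and 4 fell in Sey, with a median change of -0.15. Sema6d, a membrane-bound ligand of Plxna1, fell by 0.67, to a log2 level of 11.15 ± 0.15 in Sey mutants, against 11.82 ± 0.08 in Sey controls (limma, adjusted p = 7.53e-06). Sema4d, the ligand of Plxnb1, fell by 0.51 (adjusted p = 1.1e-05), and Sema7a, a GPI-anchored semaphorin, by 0.29 (adjusted p = 0.00516). The fourth, Sema4f, is outside the naming rule of 3 genes per list and was called in only 7 of 17 alternatives (change -0.20). In Leca4 mutants Sema4d was called higher by 0.23 with overlapping arrays (adjusted p = 0.046, kept in 9 of 17 alternatives), so that Sey and Leca4 differed by -0.74 (adjusted p = 2.16e-05).

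Of 6 other plexins, 3 rose and 0 fell in Sey, and none was called in Leca4 or Leca2. These were Plxnc1, the receptor of Sema7a, by 0.77 (9.08 ± 0.15 in Sey mutants, against 8.31 ± 0.17 in Sey controls, limma, adjusted p = 0.000464), Plxnb1 by 0.48 (adjusted p = 0.000156) and Plxnb2 by 0.42 (adjusted p = 0.000178). Of 11 co-receptors and other neuropilin ligands, 0 rose and 4 fell in Sey, and none was called in the Leca lines. Cntn2, an axonal adhesion molecule, fell by 1.17 (10.46 ± 0.25 in Sey mutants, against 11.63 ± 0.11 in Sey controls, limma, adjusted p = 3.5e-05). L1cam, which joins Nrp1 in the Sema3a receptor, fell by 0.74 (adjusted p = 0.000253), and Chl1, its close relative, by 0.95 (adjusted p = 0.00187). The fourth was Nrcam, a further L1-family partner of Nrp2, with a change of -0.45 that was called in 11 of 17 alternatives. Of the 11 projection neuron markers given above, 10 fell in the same Sey arrays, and their part in these changes was not tested.

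Of 29 genes of semaphorin signal transduction, 2 rose and 3 fell in Sey, with a median change of -0.03, and 24 were not called. Rnd3, a GTPase that does not hydrolyse GTP and acts in cortical neuron migration, rose by 0.72 (11.33 ± 0.24 in Sey mutants, against 10.61 ± 0.06 in Sey controls, limma, adjusted p = 0.000166). Its relative Rnd2, which promotes the migration of newborn cortical neurons, fell by 0.34 (adjusted p = 0.00414, and 0.0659 with replicate number as a block). The kinase Fyn, which acts downstream of Sema3a, fell by 0.25 (adjusted p = 0.00276). Dpysl4 (0.33) and Dpysl5 (-0.31), both CRMP proteins, were also called, in 13 and 8 of 17 alternatives. In Leca4 mutants Rnd1, a GTPase that binds class A plexins, fell by 0.42 (7.14 ± 0.11 in Leca4 mutants, against 7.56 ± 0.10 in Leca4 controls, limma, adjusted p = 0.00556). The Rnd1 call was lost where only the Leca4 arrays were fitted (adjusted p = 0.0577) and with replicate number as a block (adjusted p = 0.0751). No gene of the list was called in Leca2.

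**Figure D4:**
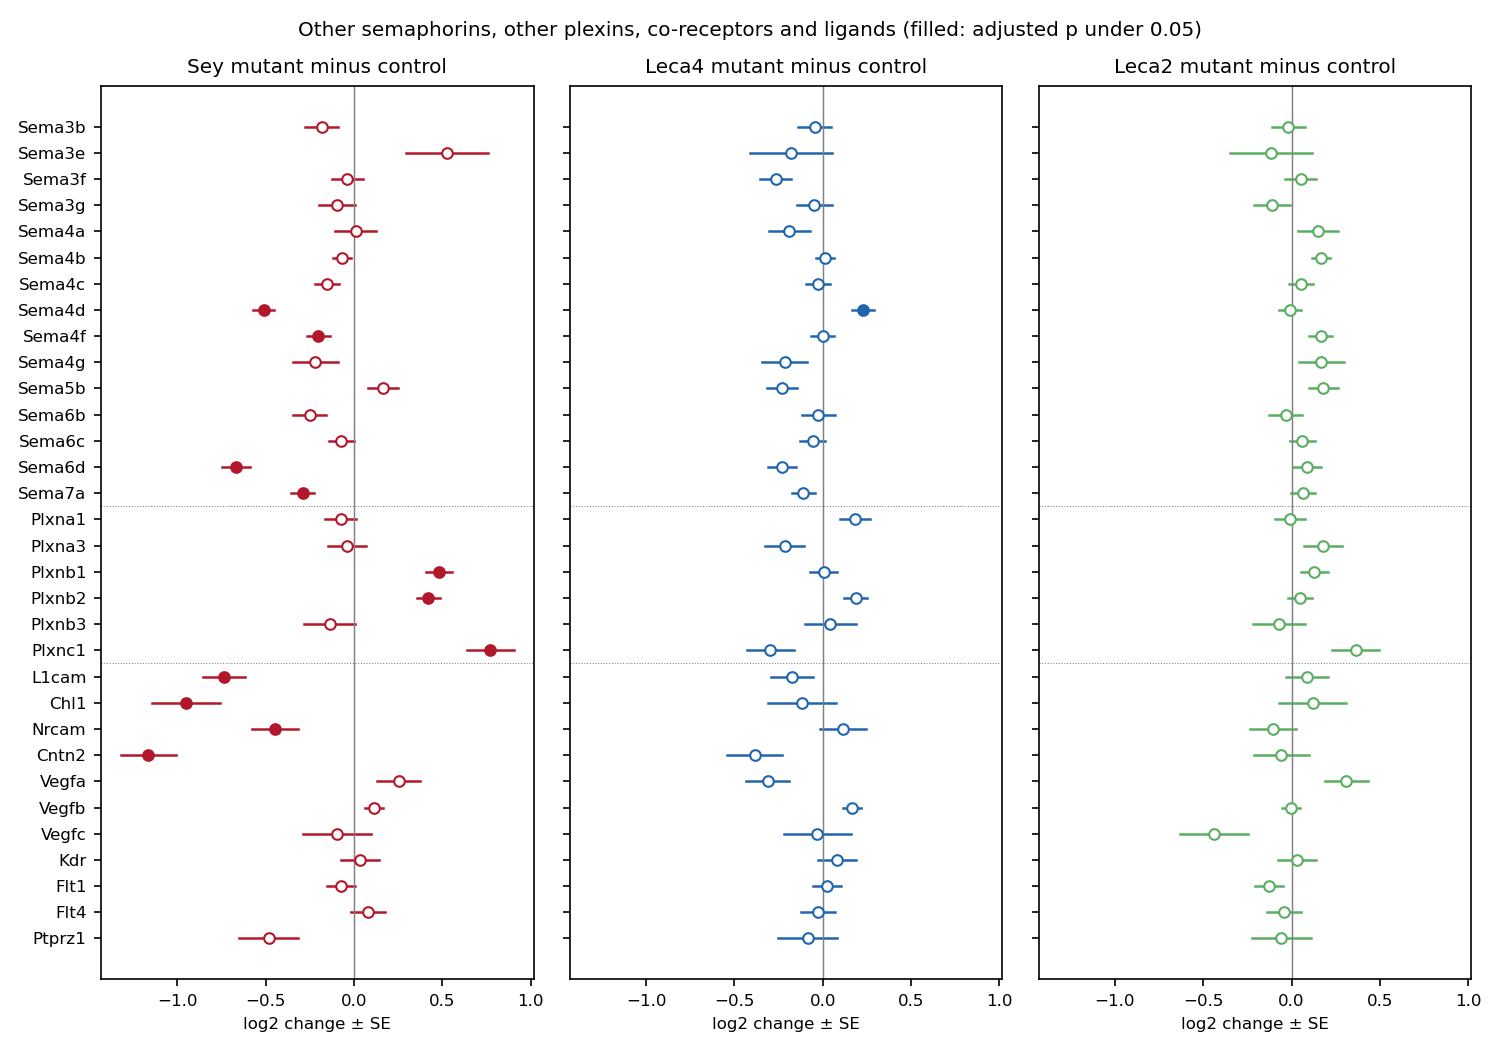
Log2 change ± SE of 15 other semaphorins, 6 other plexins and 11 co-receptors and ligands, with a panel for each line and filled points where the adjusted p was under 0.05. The filled plexins in Sey (Plxnb1, Plxnb2 and Plxnc1) are higher, and the filled semaphorins and co-receptors in Sey are lower.

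The genes most like each member over the 21 arrays were read from Pearson's r between lead probe sets, over 13849 genes. Each line was first centred midway between its mutant and control means, so differences between mutants and controls enter r. The values are a description. Sema3a was most like AI504432 (r = 0.976) and Lypd6 (r = 0.947), and Nrp1 most like Dpy19l1 (r = 0.960) and Tmem158 (r = 0.958). Sema3c was most like Ptprj (r = 0.932), Sema5a most like Kcng1 (r = 0.923), and Plxna4 most like the member Sema5a (r = 0.889). Nrp2 was most like Zic1 (r = 0.908) and Zic4 (r = 0.907). For the members that were not called, the highest values were lower, at r = 0.872 for Sema6a with Ppp1r14c, r = 0.879 for Plxna2 with Med13l and r = 0.767 for Plxnd1 with Prmt8.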

How the data were processed

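The deposited table holds log2 RMA expression values per probe set for 21 Affymetrix arrays; per the submitters' processing notes the authors used RMA, with a version and settings not given in the sources used here. Per the labels' protocols, RNeasy Micro columns with DNase gave the RNA, and MessageAmp Premier the biotin-labelled target. Array medians differ by line, so the authors' normalization may have been done per line. The number of arrays limits the precision, and the scanner signal over background is not known from this table.

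The 64 control probe sets were set aside, and a probe set was kept if 3 or more arrays exceeded the 40th percentile of their array (a log2 level of 5.37 to 5.60), which left 29474 of 45101. Symbols came from the GEO platform annotation, in which 34945 probe sets name 1 gene, 932 several and 9160 none; only the first were named. Gene positions and promoter windows came from RefSeq on GRCm38.p6. Differences were tested two-sided with limma 3.58.1 in R 4.3.3 (lmFit, eBayes) in one model of 6 groups, with 15 residual degrees of freedom, each probe set on its own, Benjamini-Hochberg adjusted over all kept probe sets. The same script was tested on simulated data with known changes. The lead probe set of a gene is the kept one with the highest mean.

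All 9 members were reported, and of each other list at most 3 called genes per line, those with the smallest p. The members and lists were chosen with earlier results of these data known. Alternatives were the fit of only the groups compared, a replicate block, no filter or a stricter one (60th percentile), lead probe sets only, quantile normalization over all arrays, median centring, a trended robust variance, array weights, a term for sex read from Xist and Y-linked genes, and leaving out each array. Same-numbered arrays were checked for pairing through the correlation of their deviations from the group means, which was -0.34 to 0.45 and not above 0.1 in every pair of any line, so the numbers were not taken to pair arrays.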

Additional observations from a re-analysis of the deposited data

Results flagged for a closer look

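Each tested probe set was checked in each group of 4 arrays, and groups of 3 arrays were not checked. Of these 72 checks, 6 found an array that stood far from the others of its group. Chance gives about 1 in 20 for independent checks, but these checks share arrays and genes. Sey mutant replicate 3 read 8.35 for Sema3a 1420416_at, the other Sey mutants 8.08 to 8.11. Leca4 control replicate 4 read 9.12 for Sema5a 1437422_at, the other controls 8.77 to 8.83. For Sema6a 1421414_a_at, Sey mutant replicate 1 read 6.89 beside 6.82 in the others, and Leca4 control replicate 3 read 6.97 beside 6.81 to 6.83. Leca4 control replicate 1 read 10.68 for Nrp1 1418084_at, the other controls 10.31 to 10.37. Leca4 control replicate 2 read 9.06 for Plxna2 1429772_at, the other controls 9.47 to 9.50.

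The test of the difference itself separated Sey from Leca4 for 8 of the 24 probe sets, against 9.07% of all. Some of these calls were lost under alternatives, as given above. Allele, strain and array processing cannot be told apart in these differences. The differences in log2 change, Sey minus Leca4, were -0.62 for Sema3a 1420416_at, -2.02 and -1.92 for Sema5a 1437422_at and 1434776_at, and -0.87 for Plxna4 1441371_at. For Nrp1 they were -0.90, -1.02 and -0.82 (1448943_at, 1418084_at and 1448944_at), and for Nrp2 1435349_at 0.69. Sey minus Leca2 was separated for 10 of the 24 probe sets, all negative, against 4.43% of all in either direction. These were Sema3a 1420416_at and 1449865_at (-1.04 and -0.76), Sema3c 1429348_at (-0.83) and Sema5a 1437422_at and 1434776_at (-1.45 and -1.93). The others were Nrp1 1448943_at, 1418084_at and 1448944_at (-1.26, -1.28 and -1.20) and Plxna4 1441371_at and 1457840_at (-0.77 and -0.81).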

How the results depend on the processing

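Of 3150 values of single probe sets recomputed under the alternatives, 2914 kept their direction and their side of the threshold, 103 were no longer called, 18 became called and 0 called values turned; a further 115 that were never called changed sign. The 13 calls in Sey were kept in every alternative run on them. With the replicate block, Sey and Leca4 differed in 5 probe sets in place of 8 and Sey and Leca2 in 6 in place of 10; the count was 14 in Sey, 3 in Leca4 and 0 in Leca2, and the cause was not tested. In Leca4 the block lost the calls of Sema3a 1420416_at and Nrp1 1448944_at and added Nrp1 1457198_at (adjusted p = 0.0822, 0.0504 and 0.00512). Same-numbered arrays did not all deviate together (r of 0.04 to 0.09 in Sey, -0.34 to 0.16 in Leca4 and -0.06 to 0.45 in Leca2). With lead probe sets only, 1 for each of the 9 genes, 6 of 9 were called in Sey and 2 of 9 in Leca4. Between Sey and Leca4 5 of 9 were called, and between Sey and Leca2 5 of 9. Of all 13850 genes, that fit called 2791 in Sey and 1778 between Sey and Leca4. A term for sex left 4 between Sey and Leca2, and the cause was not tested. Leaving out 1 array gave 13 to 13 in Sey, 3 to 4 in Leca4, 0 to 0 in Leca2, 6 to 9 between Sey and Leca4, 6 to 9 between Sey and Leca2 and 0 to 1 between Leca4 and Leca2. The lowest Sey and Leca2 count, 6, was without Leca2 control replicate 1, and the one call between Leca4 and Leca2, Sema3a 1420416_at, arose without Leca4 mutant replicate 2. Beside these, the less stable calls reached an adjusted p of up to 0.176 (Sema3a lead, Sey minus Leca4), 0.0845 (Nrp2 lead, Sey minus Leca4), 0.279 (Plxna4 lead, Sey minus Leca2), 0.284 (Sema3a 1449865_at, Sey minus Leca2), 0.199 (Sema4f, Sey), 0.164 (Nrcam, Sey), 0.265 (Dpysl5, Sey), 0.141 (Dpysl4, Sey) and 0.262 (Sema4d, Leca4), with the direction kept. Each of these calls was also lost without 1 or more single arrays.

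Over all probe sets, fitting only the groups compared gave 403 calls in place of 1110 in Leca4, 29 in place of 110 in Leca2 and 238 in place of 400 between Leca4 and Leca2. The replicate block gave 656 in Leca4, 40 in Leca2, 1394 in place of 2672 between Sey and Leca4, 694 in place of 1307 between Sey and Leca2 and 194 between Leca4 and Leca2. A term for sex gave 2815 in place of 4311 in Sey and 386 between Sey and Leca2, and array weights gave 243 in Leca2 and 628 between Leca4 and Leca2. Lead probe sets only gave 2791 in Sey, 66 in Leca2 and 1778 between Sey and Leca4. These counts are out of 13850 probe sets tested, in place of 29474, so they do not compare directly with the others. Leaving out 1 array gave 50 to 93 in Leca2, 741 to 1461 between Sey and Leca2 and 250 to 736 between Leca4 and Leca2. Signal near the filter level limits 1449865_at of Sema3a, 1425903_at of Sema6a and 1447343_at of Nrp2.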
